A study of Homo sapiens with 9 samples.

Results

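The annexin family was followed across 9 RNA-seq libraries of a human cell line labelled A549, a lung adenocarcinoma line. Its members were the rows of the deposited count and FPKM tables named ANXA1, ANXA2, ANXA3, ANXA4, ANXA5, ANXA6, ANXA7, ANXA8, ANXA9 and ANXA11, which are 10 of the 19257 genes listed. Other annexin genes were not analysed here, apart from ANXA8L1 where it bears on ANXA8. OGT_KO cells had received a Lenti-CRISPR-V2 plasmid directed at OGT, the enzyme that adds O-GlcNAc sugars to intracellular proteins. TR11B_KO cells had received one directed at TR11B, the protein entry name of osteoprotegerin, whose gene was taken to be TNFRSF11B. NC cells had received the empty plasmid and carry the genotype label WT. Each group had 3 libraries, and all groups were grown in the same medium with serum. The guides, the number of clones and the state of the edited alleles are not known from the labels, so a guide's or a clone's own effect and that of losing the gene cannot be told apart. The 3 NC libraries served as the reference for OGT_KO and for TR11B_KO alike, so those comparisons are not independent of each other. Whether replicates, called biological in the titles, were separate cultures is not stated; p-values measure only the spread between libraries, which may be technical.

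Annexins are proteins that bind negatively charged phospholipids, such as phosphatidylserine, when calcium rises. They share a conserved core built of annexin repeats and differ in their N-terminal tails, which carry binding sites for S100 proteins and other partners. They are known for work at membranes: organising membrane domains, moving and fusing vesicles, sealing torn plasma membrane and, at the cell surface, holding plasminogen activators or signalling to receptors.

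Library totals ranged from 38327508 to 42245970 counts. TR11B_KO replicate 2 stood apart from the rest: its TMM scaling factor was 0.784, against 0.951 to 1.16 in the other 8 libraries, and its rank correlation with the other TR11B_KO libraries was 0.96 and 0.97, while pairs within OGT_KO and NC reached 0.987 to 0.99. OGT was not lower in the libraries labelled OGT_KO, with 927, 1255 and 960 counts, against 1239, 1143 and 967 in NC (log2 fold change -0.17 ± 0.207 SE, adjusted p = 0.607). It was lower in the libraries labelled TR11B_KO, with 716, 356 and 484 counts (log2 -0.99 ± 0.21, adjusted p = 0.00393). TNFRSF11B had 1, 0 and 0 counts in OGT_KO, 3, 1 and 0 in TR11B_KO and 13, 15 and 3 in NC. It was too low to be tested, and at these counts the knockouts cannot be ranked for it. These transcript counts do not show whether the proteins were lost, and the group names below are those of the labels. The cell label was checked against markers. KRT8 had 4970 to 12100 CPM, the count scaled to library size, over the 9 libraries and KRT18 had 2720 to 9550 CPM, as in simple epithelium, but CDH1 had no count in any library and EPCAM reached at most 0.0512 CPM. Of the 6 metabolic genes listed as high in A549, ALDH1A1, ALDH3A1, AKR1B10, AKR1C1 and AKR1C2 were at or under 0.158 CPM. The epithelial list summed to 7690 to 9760 CPM in OGT_KO, 13600 to 21700 CPM in TR11B_KO and 16900 to 18900 CPM in NC. Markers of leukocytes summed to 2.87 to 6.5 CPM, and those of endothelium and fibroblasts stayed at or under 0.871 CPM. The part of these marker differences in the annexin results was not tested, and in bulk RNA fewer cells with a transcript and less of it per cell cannot be told apart.

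In OGT_KO, ANXA6 was the annexin that differed most from NC: it was 8.19-fold lower. ANXA7 was also lower, ANXA1 was higher, and ANXA3 was close to its NC level. In TR11B_KO it was ANXA3 that differed most, 15.8-fold lower than in NC, with ANXA5, ANXA6 and ANXA7 lower by smaller amounts. A gene was called where the edgeR adjusted p, taken over all 12574 genes that passed the low-count filter, was under 0.05. Of the 10 annexins 9 passed that filter, and ANXA9 did not. In OGT_KO against NC 3 annexins were called, 1 higher and 2 lower, where 18.3% of all tested genes were called (8.26% higher and 10.1% lower). In TR11B_KO against NC 4 were called, all lower, where 27.6% of all tested genes were called (13.2% higher and 14.3% lower). Between the knockouts, 4 annexins were called in OGT_KO against TR11B_KO: ANXA1 and ANXA3 were higher, and ANXA6 and ANXA8 lower, where 33.2% of all tested genes were called (16.7% higher and 16.5% lower). ANXA6 and ANXA7 were called lower in both knockouts against the shared NC, as were 3.75% of all tested genes. The median log2 fold change of the 9 annexins was -0.46 in OGT_KO against NC, where that of all tested genes was 0.03. It was -0.53 in TR11B_KO against NC, where that of all genes was -0.01, and 0.26 in OGT_KO against TR11B_KO, where that of all genes was 0.06.

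**Figure D1:**
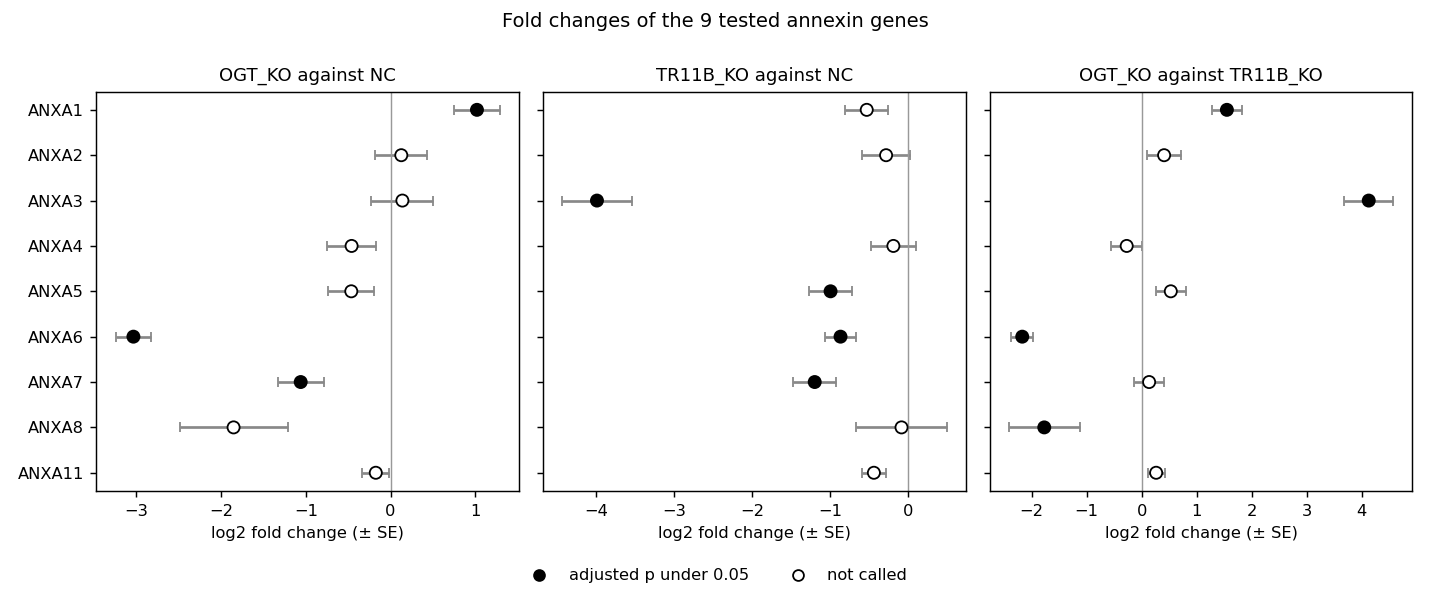
Log2 fold changes of the 9 tested annexins (points, with the standard error as bars) in OGT_KO against NC, TR11B_KO against NC and OGT_KO against TR11B_KO, from the edgeR fit to all 9 libraries; filled points have an adjusted p under 0.05. ANXA6 lies farthest to the left in the first panel at -3.03, and ANXA3 in the second at -3.99.

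The promoters of the 5 annexins called in a knockout against NC are shown, since these are the genes whose levels the results turn on. Each runs 5′ to 3′ on the gene's own strand, from 250 bases before to 50 bases after the RefSeq start in GRCh38.p14. Capitals mark every match, on either strand, to 5 short motifs. The GC box was searched as GGGCGG and the CCAAT box by the letters of its name. The TATA box was searched as TATAAA. For the E box the letters were CACGTG, and for the AP-1 motif, where N is any base, they were TGANTCA. No match overlapped another in these windows. The windows are chr5:151157730-151158029 (minus strand) for ANXA6, chr10:73414009-73414308 (minus) for ANXA7, chr4:121696931-121697230 (minus) for ANXA5, chr4:78551520-78551819 (plus) for ANXA3 and chr9:73151615-73151914 (plus) for ANXA1.
ANXA6: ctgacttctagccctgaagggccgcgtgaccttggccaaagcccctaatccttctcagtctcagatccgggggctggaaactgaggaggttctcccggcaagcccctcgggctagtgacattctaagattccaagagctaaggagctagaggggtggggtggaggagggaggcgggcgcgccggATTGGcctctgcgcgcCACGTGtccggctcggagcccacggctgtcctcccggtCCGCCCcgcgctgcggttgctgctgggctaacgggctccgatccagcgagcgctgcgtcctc
ANXA7: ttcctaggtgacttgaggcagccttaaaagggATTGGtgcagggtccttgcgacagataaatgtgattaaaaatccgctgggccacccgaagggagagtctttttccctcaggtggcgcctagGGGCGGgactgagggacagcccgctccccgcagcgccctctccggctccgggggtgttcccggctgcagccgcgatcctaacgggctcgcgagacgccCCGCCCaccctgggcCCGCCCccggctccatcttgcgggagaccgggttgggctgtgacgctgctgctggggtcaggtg
ANXA5: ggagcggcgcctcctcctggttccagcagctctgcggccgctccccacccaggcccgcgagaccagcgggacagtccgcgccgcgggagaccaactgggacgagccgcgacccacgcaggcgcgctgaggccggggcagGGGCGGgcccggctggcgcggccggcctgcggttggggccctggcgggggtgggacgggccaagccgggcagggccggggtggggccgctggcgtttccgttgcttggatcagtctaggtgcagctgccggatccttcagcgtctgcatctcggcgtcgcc
ANXA3: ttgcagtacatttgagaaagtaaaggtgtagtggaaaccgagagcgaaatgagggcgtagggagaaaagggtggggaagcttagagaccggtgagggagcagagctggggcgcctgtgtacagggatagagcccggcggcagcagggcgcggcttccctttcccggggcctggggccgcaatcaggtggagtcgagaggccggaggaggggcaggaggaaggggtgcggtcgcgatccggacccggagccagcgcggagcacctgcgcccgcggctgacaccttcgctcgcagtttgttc
ANXA1: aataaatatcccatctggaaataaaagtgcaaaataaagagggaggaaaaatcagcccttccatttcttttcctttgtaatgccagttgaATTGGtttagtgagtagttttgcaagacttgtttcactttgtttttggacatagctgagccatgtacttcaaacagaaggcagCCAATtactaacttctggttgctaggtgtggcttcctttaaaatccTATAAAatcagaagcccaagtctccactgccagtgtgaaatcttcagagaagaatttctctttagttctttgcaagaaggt

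The promoter of ANXA1 differed from the other 4 in composition. It held no CG dinucleotide and had a G and C content of 37.7%, while those of ANXA6, ANXA7, ANXA5 and ANXA3 held 25, 23, 36 and 25 CG and had 64.7% to 76.3% G and C. The median over 27305 RefSeq promoters of the same length was 14 CG. Of the 5, ANXA1 alone held a TATA box, 31 bases before the start; 12% of all promoters hold that motif in this window. ANXA7 held 3 GC boxes, ANXA6 and ANXA5 held 1 each, and 44.6% of all promoters hold at least 1. ANXA6 and ANXA7 each held 1 CCAAT match and ANXA1 held 2, against 35.7% of all promoters with any. The E box stood in the ANXA6 promoter alone, 50 bases before the start, and in 7.43% of all promoters. None of the 5 held the AP-1 motif, which 7.76% of all promoters hold, and the ANXA3 window held none of the 5 motifs. These are matches of letters in a fixed window and say nothing of binding.

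Levels of different annexins were compared as FPKM, which is scaled to gene length. The order below therefore depends on the lengths used: 5266 bases for ANXA2, 2613 for ANXA5 and 3041 for ANXA6. In mean CPM, which is not scaled to length, NC had 339 for ANXA2, 327 for ANXA5 and 268 for ANXA6. In NC the family was led by ANXA5 at 126 ± 4.98 FPKM (SD, n = 3), followed by ANXA6 at 88.8 ± 1.03, ANXA2 at 64.9 ± 12.9 and ANXA11 at 29.8 ± 1.4 FPKM. ANXA7 (11.5 ± 1.02 FPKM), ANXA3 (7.11 ± 1.79), ANXA4 (3.51 ± 0.372) and ANXA1 (3.35 ± 0.356) came next, and ANXA8 and ANXA9 averaged 0.108 and 0.00811 FPKM. Each of these genes was above the next in all 3 NC libraries, except that ANXA4 and ANXA1 overlapped. In OGT_KO the order was ANXA5 (99.1 ± 2.97 FPKM), ANXA2 (77 ± 14.2), ANXA11 (28.6 ± 2.46), ANXA6 (11.7 ± 0.853), ANXA3 (8.47 ± 0.428), ANXA1 (7.35 ± 0.412), ANXA7 (5.96 ± 0.59) and ANXA4 (2.76 ± 0.229), with no overlap between neighbours down to ANXA4. ANXA6, the runner-up in NC, thus stood below ANXA2 and ANXA11 in OGT_KO. In TR11B_KO, ANXA5 (59.6 ± 33.6 FPKM), ANXA2 (50.2 ± 28.3) and ANXA6 (43 ± 6.62) overlapped, ANXA11 followed at 19.7 ± 0.34, and ANXA7, ANXA4 and ANXA1 lay between 4.69 and 2.08 FPKM on average, with overlaps from each to the next. ANXA3, at 0.411 ± 0.397 FPKM, was below all of these in TR11B_KO.

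**Figure D2:**
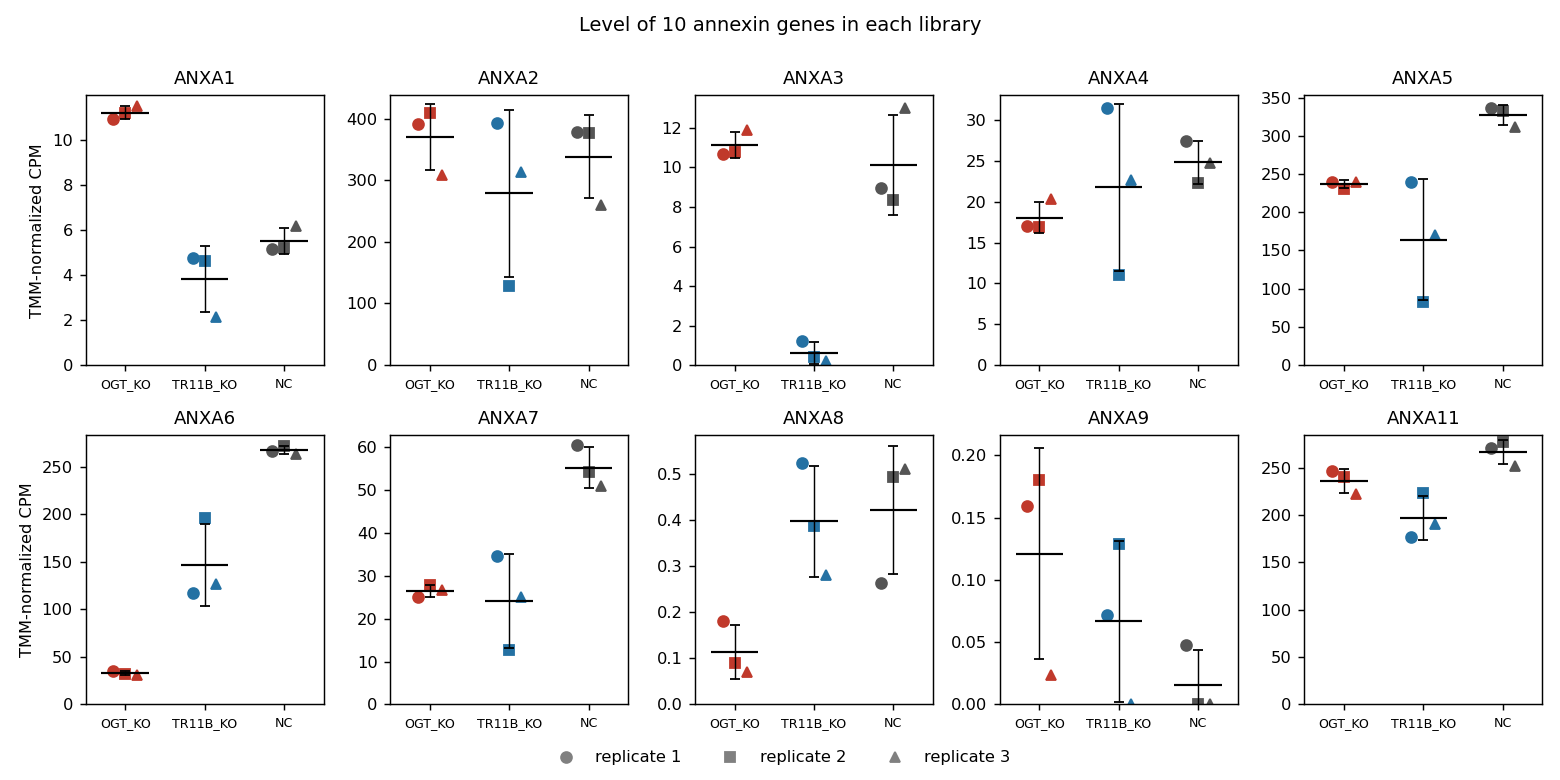
TMM-normalized CPM (y axis, linear from 0, a different range in each panel) of the 10 annexins in OGT_KO, TR11B_KO and NC; symbols are replicates 1 to 3, horizontal lines are means and bars are the SD of 3 libraries. ANXA6 separates all 3 groups, ANXA3 is near 0 in TR11B_KO alone, and TR11B_KO replicate 2 is the lowest of the 9 libraries for ANXA2, ANXA4, ANXA5 and ANXA7.

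Summed over the 10 genes, the family had 241.4, 261.4 and 220.3 FPKM in OGT_KO, 240.6, 119.9 and 187.4 FPKM in TR11B_KO and 347.5, 344.5 and 313.6 FPKM in NC. Every knockout library was below every NC library. ANXA6 made up 4.87% ± 0.23 of the OGT_KO sum, 26.5% ± 13.8 of the TR11B_KO sum and 26.5% ± 1.31 of the NC sum (SD, n = 3 each). The equal means of TR11B_KO and NC rest on TR11B_KO replicate 2, at 42.2%. Replicates 1 and 3 had 16.1% and 21.2%, below the NC range of 25.5% to 28%. ANXA2 made up 31.8% ± 3.27 in OGT_KO, 25.8% ± 8.47 in TR11B_KO and 19.2% ± 2.89 in NC. The size of these shares also depends on the gene lengths used. The FPKM ratio of ANXA6 to ANXA5, which no scaling between libraries can change, was 0.126, 0.118 and 0.111 in OGT_KO, 0.42, 2.03 and 0.644 in TR11B_KO and 0.683, 0.7 and 0.728 in NC. The 3 OGT_KO ratios were therefore below all the others. TR11B_KO lay below NC in replicates 1 and 3 and above it in replicate 2.

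**Figure D3:**
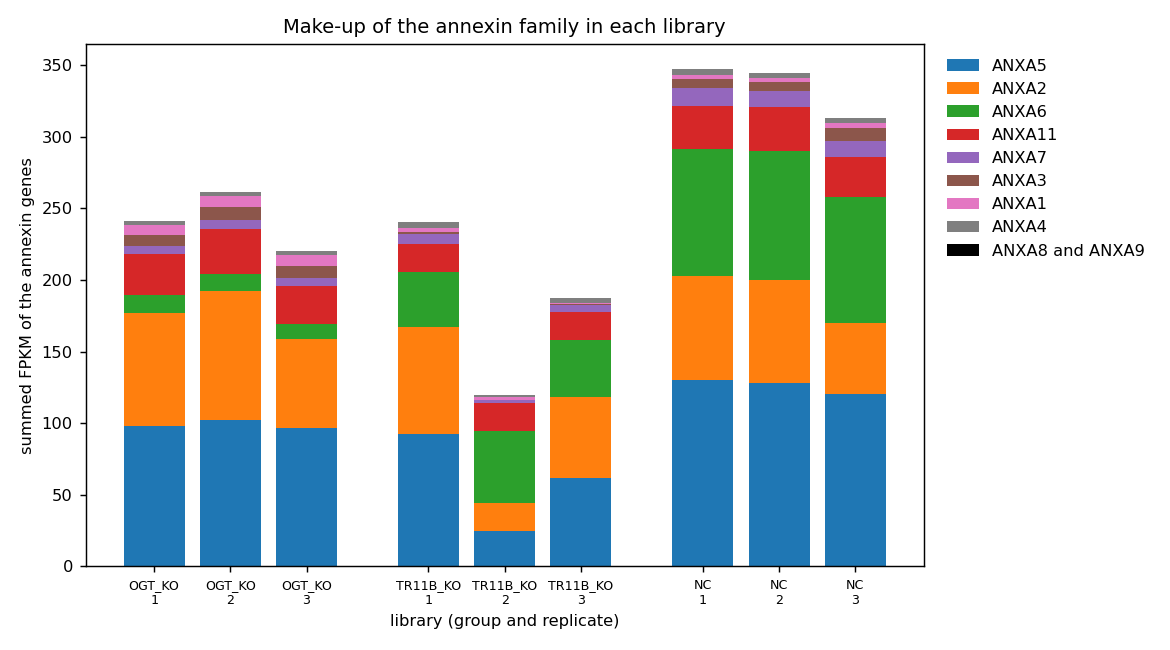
Summed FPKM of the annexins (y axis) in each library, stacked by gene, for replicates 1 to 3 of OGT_KO, TR11B_KO and NC. The ANXA6 block is 4.87% of the column on average in OGT_KO and 26.5% in NC, and the column of TR11B_KO replicate 2 is the shortest at 119.9 FPKM.

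ANXA6, on the minus strand of chromosome 5 from 151100706 to 151157779 (GRCh38.p14), is the annexin with a duplicated core and is known from endosomes, cholesterol transport and the assembly of signalling complexes under the plasma membrane. It had 35.1, 31.9 and 31 CPM in OGT_KO, 117, 196 and 127 CPM in TR11B_KO and 267, 272 and 264 CPM in NC. The groups did not overlap, with OGT_KO lowest, TR11B_KO between and NC highest. ANXA6 had the largest F value of the family over the 3 groups, ranked 29 of 12574 genes. In OGT_KO against NC its log2 fold change was -3.03 ± 0.209 (SE, adjusted p = 1.02e-06). In TR11B_KO against NC it was -0.87 ± 0.194 (adjusted p = 0.00544), a 1.82-fold lower level. The knockouts also differed from each other, with ANXA6 4.5-fold lower in OGT_KO than in TR11B_KO (log2 -2.17 ± 0.202, adjusted p = 5.47e-06). All 3 calls were made in 21 of 21 alternative settings, and without TR11B_KO replicate 2 the TR11B_KO change was -1.10 (adjusted p = 3.74e-07).

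ANXA3, on the plus strand of chromosome 4 from 78551770 to 78610447, is less well studied and was described as an inhibitor of phospholipase A and as abundant in neutrophils. It had 472, 478 and 498 counts in OGT_KO, 52, 13 and 8 counts in TR11B_KO and 374, 355 and 508 counts in NC. Scaled to library size these were 10.7, 10.8 and 11.9 CPM in OGT_KO, 1.24, 0.419 and 0.205 CPM in TR11B_KO and 8.94, 8.36 and 13 CPM in NC. Every TR11B_KO library was far below the other 6, and OGT_KO lay within the NC range. ANXA3 was 15.8-fold lower in TR11B_KO than in NC (log2 -3.99 ± 0.444, adjusted p = 8.85e-05) and 17.5-fold higher in OGT_KO than in TR11B_KO (log2 4.13 ± 0.445, adjusted p = 2.05e-05). Both were called in 21 of 21 alternatives, but their size moved: without TR11B_KO replicate 1 they were -4.98 and 5.14 on the log2 scale, and over all alternatives they ranged from -4.98 to -2.54 and from 2.78 to 5.14, the smallest with limma on log2(FPKM + 1). In OGT_KO against NC the change was 0.14 ± 0.367 (adjusted p = 0.831), a difference smaller than the spread between libraries. The TR11B_KO libraries differed among themselves by more than counting error, with 52 counts in replicate 1 and 8 in replicate 3.

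ANXA1, on the plus strand of chromosome 9 from 73151865 to 73170393, is induced by glucocorticoids and, once released, acts through formyl peptide receptors to limit inflammation. It had 10.9, 11.2 and 11.5 CPM in OGT_KO, 4.74, 4.61 and 2.13 CPM in TR11B_KO and 5.16, 5.2 and 6.18 CPM in NC. All 3 OGT_KO libraries were above every other library, and all 3 TR11B_KO libraries were below every NC library. In OGT_KO against NC it was 2.03-fold higher (log2 1.02 ± 0.272, adjusted p = 0.0191), a call that was lost without any single OGT_KO library or without NC replicate 1 or 2 (adjusted p from 0.0589 to 0.0844, log2 0.97 to 1.04). In TR11B_KO against NC the change was -0.53 ± 0.276 (adjusted p = 0.168), and without TR11B_KO replicate 2 it was -0.66 (adjusted p = 0.0444). The direct difference was the firmest of the 3: ANXA1 was 2.93-fold higher in OGT_KO than in TR11B_KO (log2 1.55 ± 0.278, adjusted p = 0.000964), in 21 of 21 alternatives.

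ANXA7, also known as synexin and a partner of the calcium-binding protein sorcin, lies on the minus strand of chromosome 10 from 73375101 to 73414058. It had 25.1, 27.8 and 26.7 CPM in OGT_KO, 34.6, 12.7 and 25 CPM in TR11B_KO and 60.6, 54.3 and 51 CPM in NC. Both knockouts were below NC in every library, and they overlapped each other. ANXA7 was 2.29-fold lower in TR11B_KO than in NC (log2 -1.20 ± 0.273, adjusted p = 0.00597), in 21 of 21 alternatives, and the change was -0.86 without TR11B_KO replicate 2 (adjusted p = 9.03e-05). In OGT_KO it was 2.09-fold lower (log2 -1.06 ± 0.272, adjusted p = 0.0157). That call was held in 13 of 21 alternatives. It was lost with library totals as the only scaling (-0.94, adjusted p = 0.0753), with limma on FPKM (-0.93 to -0.84, adjusted p from 0.072 to 0.13) and without any single OGT_KO library or NC replicate 1 (-1.10 to -0.99, adjusted p from 0.059 to 0.0721). OGT_KO and TR11B_KO did not differ detectably (log2 0.14 ± 0.27, adjusted p = 0.733).

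ANXA5, the protein whose labelled form is used to stain exposed phosphatidylserine, lies on the minus strand of chromosome 4 from 121667946 to 121696980. It had 240, 231 and 240 CPM in OGT_KO, 240, 83 and 170 CPM in TR11B_KO and 336, 333 and 312 CPM in NC. Every knockout library was below every NC library, and TR11B_KO varied the most. ANXA5 was 1.99-fold lower in TR11B_KO than in NC (log2 -0.99 ± 0.274, adjusted p = 0.0162), and without TR11B_KO replicate 2 the change was smaller, -0.65 (adjusted p = 0.000699). The call was lost without NC replicate 1 (adjusted p = 0.0529) or NC replicate 2 (0.053), in the fit to TR11B_KO and NC alone (0.0528) and with limma on unfiltered FPKM (0.0699). In OGT_KO the change was -0.46 ± 0.272 and was not called (adjusted p = 0.252). It was called in 2 settings that took TR11B_KO replicate 2 out of the shared estimate of spread, at the same size: in the fit to OGT_KO and NC alone (-0.46, adjusted p = 0.000589) and without that library (-0.46, adjusted p = 0.00506).

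ANXA2, ANXA4 and ANXA11 were called in no comparison. ANXA2 pairs with S100A10 at the cell surface and under the plasma membrane, and has processed pseudogenes that could share its reads. It had 391, 409 and 309 CPM in OGT_KO, 393, 129 and 314 CPM in TR11B_KO and 378, 377 and 260 CPM in NC, and its groups overlapped throughout. Its log2 fold change was 0.13 ± 0.305 in OGT_KO (adjusted p = 0.813) and -0.28 ± 0.305 in TR11B_KO (adjusted p = 0.525), and the TR11B_KO value was 0.09 without TR11B_KO replicate 2.

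ANXA4, known from secretory epithelia and vesicle membranes, had 17, 16.9 and 20.3 CPM in OGT_KO, 31.5, 11.1 and 22.7 CPM in TR11B_KO and 27.5, 22.3 and 24.7 CPM in NC. OGT_KO lay below NC without overlap, but the change of -0.46 ± 0.287 was not called (adjusted p = 0.284); without TR11B_KO replicate 2 it was the same size and called (adjusted p = 0.0229). ANXA11, which binds S100A6 and PDCD6 and links RNA granules to lysosomes in neurons, had 247, 240 and 222 CPM in OGT_KO, 177, 223 and 191 CPM in TR11B_KO and 271, 277 and 252 CPM in NC. Both knockouts were below NC in all libraries. Its change in TR11B_KO of -0.44 ± 0.157 narrowly missed the threshold (adjusted p = 0.0519) and passed it in 5 alternatives, among them the fit without TR11B_KO replicate 2 (-0.50, adjusted p = 0.00432). With an offset for gene length it was -0.12 (adjusted p = 0.652). In OGT_KO it was -0.17 ± 0.157 (adjusted p = 0.474). None of these genes or ANXA5 was called in OGT_KO against TR11B_KO, where the log2 fold change was 0.41 ± 0.306 for ANXA2 (adjusted p = 0.324), -0.27 ± 0.287 for ANXA4 (adjusted p = 0.501), 0.53 ± 0.272 for ANXA5 (adjusted p = 0.149) and 0.26 ± 0.157 for ANXA11 (adjusted p = 0.212). Single TR11B_KO libraries moved these values: without replicate 1 ANXA5 was 0.87 and called (adjusted p = 0.00787), and without replicate 2 it was 0.19, ANXA2 was 0.04, and ANXA4 was -0.61 and called (adjusted p = 0.00509). ANXA5 was also called with no low-count filter (0.51, adjusted p = 0.0372). The ANXA11 value turned with the setting: it was 0.54 with library totals as the only scaling (adjusted p = 0.00377) and -0.21 with an offset for gene length. Counting groups that do not overlap, 7 of the 9 tested annexins separated OGT_KO from NC, 6 of them lower, where 49.8% of all tested genes separated and 25.6% were lower. In TR11B_KO against NC 6 separated, all lower, where 40.9% of all tested genes did and 21.9% were lower, and in OGT_KO against TR11B_KO 4 did, 2 of them lower, where 44.9% of all genes did and 20.3% were lower.

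ANXA8 and ANXA9 were near the detection limit. ANXA8, described in stratified epithelia, had 8, 4 and 3 counts in OGT_KO, 22, 12 and 11 in TR11B_KO and 11, 21 and 20 in NC. It was lower in OGT_KO than in TR11B_KO (log2 -1.77 ± 0.642, adjusted p = 0.047), but the call was held in 3 of 20 alternatives (adjusted p up to 0.145), and it was not called in OGT_KO against NC (-1.85 ± 0.637, adjusted p = 0.0574). Its near-identical copy ANXA8L1 had at most 6 counts in any library, and how reads shared by the 2 genes were counted is not known. ANXA9, an annexin whose calcium-binding sites are degenerate, had 7, 8 and 1 counts in OGT_KO, 3, 4 and 0 in TR11B_KO and 2, 0 and 0 in NC. Its summed count per library total was 8.19 times higher in OGT_KO than in NC, with a 95% interval from counting error alone of 1.93 to 73.5. An exact permutation test of the library values (two-sided) gave p = 0.2, and no p under 0.1 is possible with 3 libraries against 3.

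Fold changes in TR11B_KO varied with gene length over the whole table. Across the 12574 genes, which are not independent replicates, the Spearman correlation of the log2 fold change with gene length was -0.313 in TR11B_KO against NC, 0.066 in OGT_KO against NC and 0.333 in OGT_KO against TR11B_KO. In TR11B_KO the median gene between 111 and 2047 bases, the fifth of the genes that holds ANXA1 (1662 bases) and ANXA3 (1432 bases), had a log2 fold change of 0.42. The median gene between 4770 and 7153 bases, where ANXA2, ANXA4 and ANXA7 lie, had -0.22. The median gene between 2047 and 3255 bases, where ANXA5 and ANXA6 lie, had 0.11. ANXA1, ANXA3, ANXA5 and ANXA6 thus fell on the other side of 0 from genes of their length. ANXA2, ANXA4, ANXA7, ANXA8 and ANXA11 lay on the same side. With an offset that removes the trend, the TR11B_KO changes were -4.31 for ANXA3, -1.04 for ANXA5, -0.83 for ANXA6 (adjusted p = 0.0122), -1.0 for ANXA7 (adjusted p = 0.0135), -0.12 for ANXA11 and -0.78 for ANXA1, which was then called (adjusted p = 0.0474). What gave rise to the trend was not tested.

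**Figure D4:**
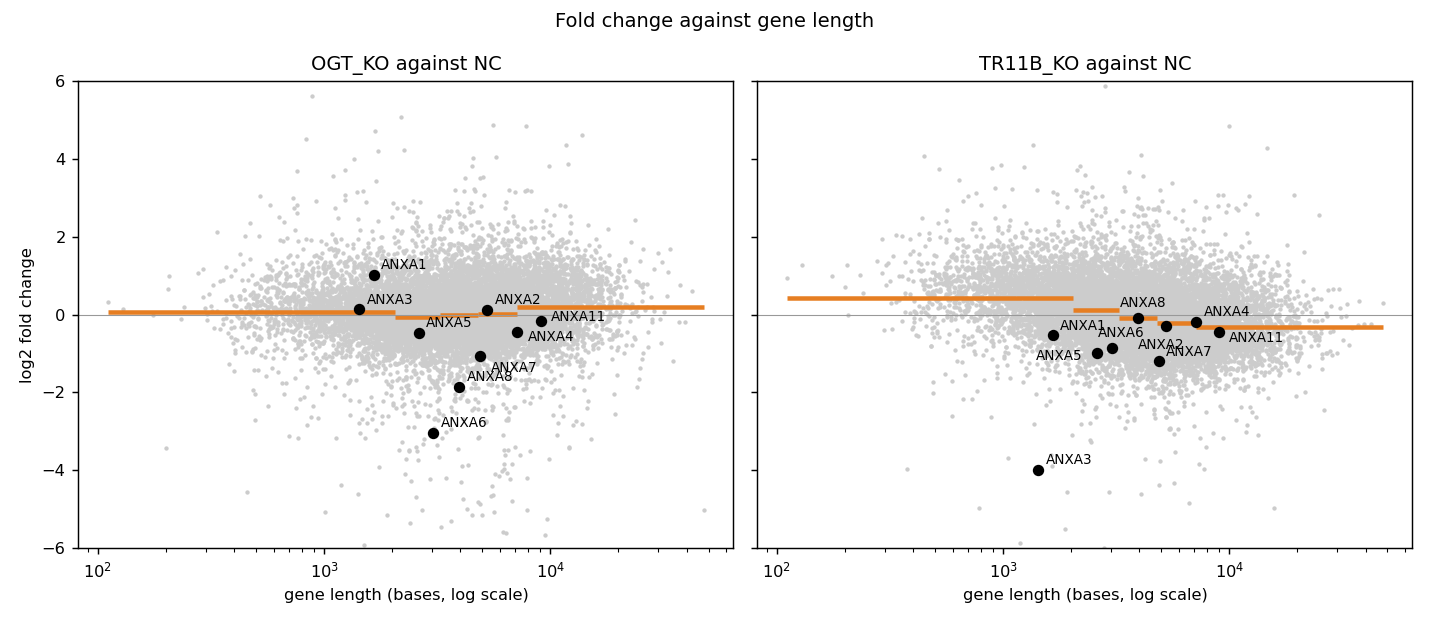
Log2 fold change (y axis) against gene length in bases (x axis, log scale) for the 12574 tested genes in OGT_KO against NC and TR11B_KO against NC; annexins are black and labelled, and orange lines are the medians of 5 equal groups by length. In TR11B_KO the medians go from 0.42 in the shortest group to -0.31 in the longest; 29 genes in the first panel and 8 in the second lie beyond the y axis.

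Among themselves, the annexins followed different courses over the 9 libraries. The closest pair by the root mean square difference of mean-centred log2 CPM was ANXA5 and ANXA7 at 0.257, followed by ANXA2 and ANXA5 at 0.359. The farthest was ANXA3 and ANXA6 at 2.74. The closeness of ANXA2, ANXA4, ANXA5 and ANXA7 includes TR11B_KO replicate 2, in which all 4 were at their lowest.

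Outside the family, the gene whose course was most like that of ANXA6 was PDZK1IP1, a small membrane protein of epithelia, at a root mean square difference of 0.18 over the 9 libraries. It had 11.6, 11.3 and 14 CPM in OGT_KO, 52.3, 70.3 and 50.6 CPM in TR11B_KO and 85.9, 89.2 and 88.2 CPM in NC. The groups took the same order as for ANXA6, without overlap. PDZK1IP1 was picked for its likeness over these same libraries, so its order and calls are not separate evidence. Its log2 fold change was -2.84 in OGT_KO (adjusted p = 8.8e-07) and -0.60 in TR11B_KO (adjusted p = 0.0222). ITGB2-AS1 at 0.276 and C6orf132 at 0.369 came next, both under 4 CPM in NC on average (0.44 and 3.65 CPM). Likeness was taken on log2 CPM with a prior count of 2, which shrinks differences at low counts, so that of ITGB2-AS1 to ANXA6 is uncertain. ITGB2-AS1 averaged 0.00758 CPM in OGT_KO, at the floor, so the size of its fold change there is not well determined. By the edgeR fit it was -5.37 in OGT_KO (adjusted p = 0.00318) and -1.3 in TR11B_KO (adjusted p = 0.187). C6orf132 was -2.7 (adjusted p = 0.000176) and -0.27 (adjusted p = 0.534), so neither was called in TR11B_KO. For ANXA3, a comparison chosen after its values were seen, the nearest genes were much less alike, with ALPK2 at 0.854, NEURL3 at 0.894 and PTPRO at 0.906. ALPK2 had a log2 fold change of -3.16 in TR11B_KO (adjusted p = 0.000171) and -0.14 in OGT_KO (adjusted p = 0.81).

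The tested genes beside ANXA6 on chromosome 5 were also examined. TNIP1, which encodes a partner of the A20 deubiquitinase and lies 13021 bases away, had 348, 293 and 352 CPM in OGT_KO, 298, 426 and 312 CPM in TR11B_KO and 587, 577 and 571 CPM in NC. It was lower in both knockouts, by smaller amounts than ANXA6 in OGT_KO: its log2 fold change was -0.81 ± 0.176 in OGT_KO (adjusted p = 0.00654) and -0.75 ± 0.175 in TR11B_KO (adjusted p = 0.00704), and with the length offset the TR11B_KO value was -0.44 and not called (adjusted p = 0.145). SMIM3, 303972 bases away on the same side, was lower in both as well (-0.86, adjusted p = 0.0431 in OGT_KO, and -0.92, adjusted p = 0.0243 in TR11B_KO). On the other side, CCDC69 (-0.58 in OGT_KO, adjusted p = 0.171, and -0.66 in TR11B_KO, adjusted p = 0.101) and GM2A (0.04 in OGT_KO, adjusted p = 0.928, and -0.55 in TR11B_KO, adjusted p = 0.0805) were not called. Of the tested genes nearest to ANXA3 on chromosome 4, MRPL1, CNOT6L, BMP2K and PAQR3, none was called in TR11B_KO against NC, with log2 fold changes from -0.88 to 0.12 and adjusted p from 0.112 to 0.879.

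Annexins act with S100 proteins and other direct partners, of which 9 of the 12 listed were tested. In OGT_KO 2 rose and 1 fell, in TR11B_KO 2 rose and none fell, and the list's median log2 fold change was 0.21 in OGT_KO and 0.07 in TR11B_KO. Over all tested genes 18.3% were called in OGT_KO and 27.6% in TR11B_KO, with medians of 0.03 and -0.01. With 9 genes tested, the counts were not read as a trait of this list. S100A10, the partner of ANXA2, had 308, 321 and 284 CPM in OGT_KO, 295, 154 and 233 CPM in TR11B_KO and 321, 344 and 334 CPM in NC. Like ANXA2 it was called in neither knockout (-0.13, adjusted p = 0.709 in OGT_KO, and -0.55, adjusted p = 0.0599 in TR11B_KO), although with the length offset the TR11B_KO change was -1.18 (adjusted p = 0.00186). S100A6, a partner of ANXA11, had 3140, 2660 and 3140 CPM in OGT_KO, 6350, 7270 and 6460 CPM in TR11B_KO and 2400, 2230 and 2470 CPM in NC. It rose in TR11B_KO (log2 1.5 ± 0.156, adjusted p = 6.03e-05; 0.79 and adjusted p = 0.00429 with the length offset). SRI, which encodes sorcin, the partner of ANXA7, also rose in TR11B_KO (0.88 ± 0.173, adjusted p = 0.00254), opposite to ANXA7.

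In OGT_KO, AHNAK, a giant scaffold that binds the ANXA2 and S100A10 complex, rose to 440, 597 and 423 CPM, against 293, 327 and 195 CPM in NC (log2 0.84 ± 0.227, adjusted p = 0.0201). With the length offset that change was 0.53 and not called (adjusted p = 0.0801). RASA1, a GTPase-activating protein that binds ANXA6, rose at low levels, with 105, 75 and 81 counts in OGT_KO and 17, 31 and 37 in NC (1.53 ± 0.48, adjusted p = 0.0402). S100A4 fell at the edge of detection, with 5, 5 and 3 counts in OGT_KO and 30, 14 and 20 in NC (-2.35 ± 0.592, adjusted p = 0.0143).

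The ANXA2 complex serves plasminogen activation at the cell surface, and 6 of the 8 genes listed for it were tested. In OGT_KO 1 rose and 1 fell, where 18.3% of all tested genes were called. PLAU, the urokinase, rose to 466, 408 and 441 CPM in OGT_KO, against 218, 219 and 225 CPM in NC (log2 0.99 ± 0.153, adjusted p = 0.00075). PLAUR, its receptor, fell to 9.28, 6.69 and 7.57 CPM in OGT_KO, against 36.1, 36.3 and 38.1 CPM in NC (-2.23 ± 0.188, adjusted p = 7.45e-06). The enzyme and its receptor thus moved in opposite directions in the same libraries.

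Of the 18 genes listed for plasma membrane repair, where annexins form a cap over a tear, 16 were tested. In OGT_KO 2 rose and 1 fell, and in TR11B_KO 1 rose and 4 fell; the list's median was -0.01 in both. These counts are close to the shares of all tested genes called, 18.3% in OGT_KO and 27.6% in TR11B_KO. DYSF, the ferlin known from repair of muscle membrane, had 2, 0 and 0 counts in OGT_KO, 21, 14 and 36 in TR11B_KO and 434, 421 and 361 in NC. Its count per library total in OGT_KO was 0.00168 of that in NC, with a 95% counting interval of 0.000204 to 0.0061, and in TR11B_KO it was 0.0583, with an interval of 0.0452 to 0.0741 (adjusted p = 2.26e-07 in OGT_KO and 2.11e-05 in TR11B_KO). Of the annexins, only ANXA6 was also called lower in OGT_KO, in TR11B_KO and in OGT_KO against TR11B_KO. Of all tested genes 3.75% were called lower in both knockouts against NC, and the share called in all of these comparisons was not counted. A link between DYSF and ANXA6 was not tested.

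MYOF, a ferlin of the same family, took another course, with 39.2, 59 and 44.4 CPM in OGT_KO, 11.6, 8.32 and 10.5 CPM in TR11B_KO and 27.5, 31.1 and 20.3 CPM in NC. It rose in OGT_KO (log2 0.85 ± 0.223, adjusted p = 0.0171), fell in TR11B_KO (-1.37 ± 0.228, adjusted p = 0.000954) and differed between them by 2.23 ± 0.233 (adjusted p = 1.45e-05). Also in TR11B_KO, PDCD6IP (ALIX, an adaptor of the ESCRT machinery) fell by 1.18 and VAMP3, a vesicle SNARE, fell by 0.89 on the log2 scale (adjusted p = 0.00904 and 0.0144), while STX4, a plasma membrane SNARE, rose by 1.05 (adjusted p = 0.000872). SYT7, a calcium sensor of lysosome exocytosis, rose in OGT_KO (0.83 ± 0.239, adjusted p = 0.0278), but not with the length offset (0.59, adjusted p = 0.11).

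Annexin binding depends on which leaflet holds phosphatidylserine, and 10 of the 11 genes listed for its exposure and flipping were tested. In OGT_KO 3 rose and 1 fell, with a list median of 0.45; in TR11B_KO none rose and 3 fell, with a list median of -0.36. Of all tested genes 18.3% were called in OGT_KO and 27.6% in TR11B_KO, with medians of 0.03 and -0.01. ANO6, a calcium-activated scramblase, had 19, 22.7 and 20.1 CPM in OGT_KO, 3.64, 5.35 and 6.92 CPM in TR11B_KO and 12.8, 11.1 and 12.5 CPM in NC. The groups did not overlap, with OGT_KO above NC (log2 0.76 ± 0.233, adjusted p = 0.036) and TR11B_KO below it (-1.20 ± 0.239, adjusted p = 0.00282). With the length offset the OGT_KO value was 0.66 and not called (adjusted p = 0.0618).

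The flippase gene ATP8B1 had the same order, with 5.96, 9.19 and 7.12 CPM in OGT_KO, 1.98, 2.16 and 2.33 CPM in TR11B_KO and 4.28, 4.12 and 4.68 CPM in NC (0.77 in OGT_KO, adjusted p = 0.0316, and -1.01 in TR11B_KO, adjusted p = 0.00666). ATP11A, a further flippase gene, fell in TR11B_KO (-1.39 ± 0.288, adjusted p = 0.0035) and was not called in OGT_KO (0.48, adjusted p = 0.241). Tested directly, OGT_KO exceeded TR11B_KO by 1.96 for ANO6, 1.78 for ATP8B1 and 1.86 for ATP11A on the log2 scale, all called. With the length offset these differences were smaller, at 1.56, 1.42 and 1.31, and still called. XKR8, a scramblase cut open by caspases, fell in OGT_KO (-0.77 ± 0.221, adjusted p = 0.0272), and ATP11B rose there at low levels (1.32, adjusted p = 0.0453; 1.05, adjusted p = 0.109 with the length offset). Without TR11B_KO replicate 2, the genes called in TR11B_KO against NC numbered 2 among the direct partners, 8 for membrane repair and 3 for phosphatidylserine, against 2, 5 and 3 with it, while calls over all genes numbered 4386, against 3469 with it. In OGT_KO against NC, where that library enters only through the shared estimate of spread, the same lists had 5, 5 and 5 called, against 3, 3 and 4 with it, and calls over all genes numbered 4536, against 2303.

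**Figure D5:**
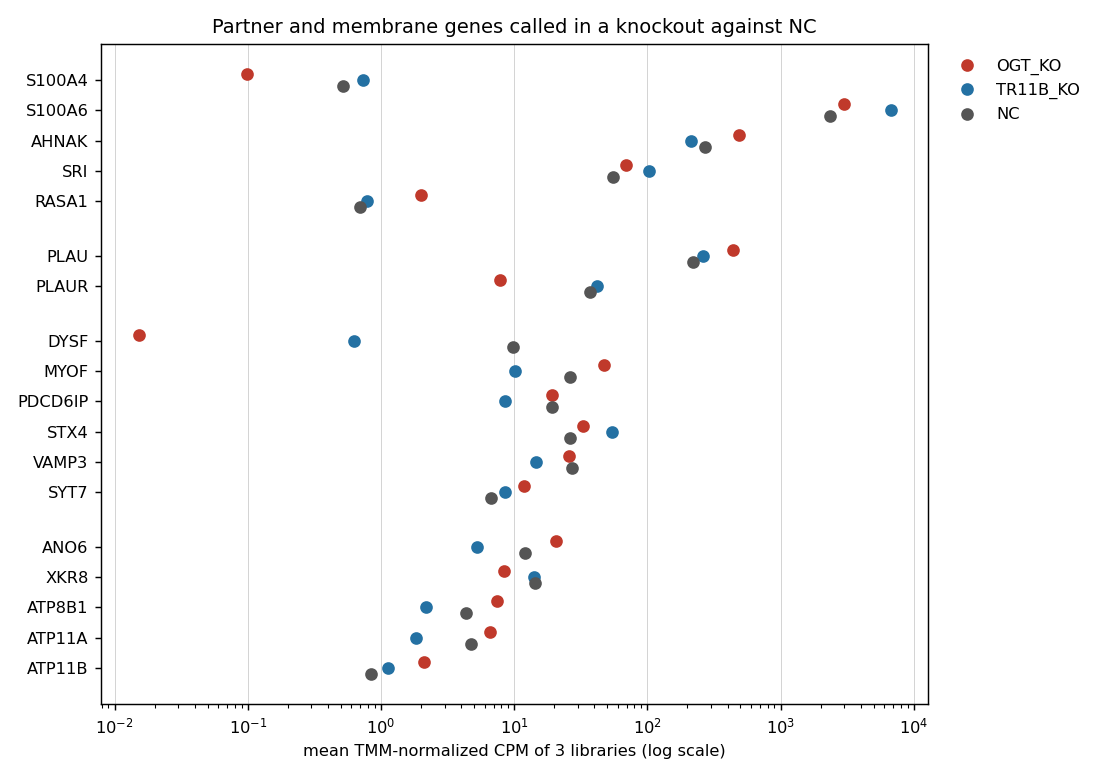
Mean TMM-normalized CPM (x axis, log scale) of 18 partner and membrane genes called in OGT_KO or TR11B_KO against NC, with OGT_KO, TR11B_KO and NC as red, blue and grey points, grouped by list from the direct partners at the top to phosphatidylserine exposure at the bottom. For ANO6, ATP8B1 and MYOF the red point lies to the right and the blue point to the left of the grey one, and for DYSF both lie far to the left.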

How the data were processed

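RNA was measured in 9 libraries, grouped and numbered by their titles. Per the labels' protocols, total RNA from TRIzol extraction went into a VAHTS library kit; it is not stated whether strand was kept. The build GRCh38 and the tools DESeq2, R 3.2.0, HTSeq, HISAT and fastp are named, with no role, per the submitters' processing notes. The count table deposited by the authors holds whole, unscaled reads per gene. The FPKM values deposited by the authors are those counts per gene length and library total.

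Counts were fitted with edgeR 4.0.16 in R 4.3.3: filterByExpr, TMM factors, robust quasi-likelihood F test over all 9 libraries with 1 mean per group, Benjamini-Hochberg adjustment over 12574 genes, call at 0.05. CPM values are TMM-scaled; FPKM values are not. The biological coefficient of variation was 0.241. Standard errors are the log2 fold change over the square root of F. Intervals cover counting error only. The fit was tested on simulated data, in which only genes above 2 CPM were changed, and far fewer genes than were called in the real data. Of 100 genes changed by 1 on the log2 scale it recovered 60% in OGT_KO and 61% in TR11B_KO against NC. Of 100 changed by 2 it recovered 99% and 100%, and 9 unchanged genes were called in each comparison. Real changes of 1 or less may therefore go uncalled, but these rates need not hold for the real data or for genes as low as ANXA8. The alternatives were DESeq2 1.42.0, other scalings and filters, limma 3.58.1 on log2(FPKM + 1) or log2(FPKM + 0.1), 2 groups alone, a replicate block, a length offset (loess) and each library left out.

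All 10 members are named. Of each partner list, up to 4 called genes per knockout by smallest p are named. S100A10 was added for its pairing with ANXA2, and VAMP3 was added beyond the 4 for membrane repair in TR11B_KO. For the member with the largest F, the 3 genes most alike and the nearest tested neighbours are named. The length offset and the fit without TR11B_KO replicate 2 were applied to the partner lists after the data were seen. Results for a few listed genes are not reported here. Members and lists were chosen with earlier results of these data known. RefSeq names (GRCh38.p14) matched 18339 of the 19257 gene names and all 10 annexins, 9 of them with a promoter.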

Additional observations from a re-analysis of the deposited data

How the results depend on the processing

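ANXA6 in all 3 comparisons, ANXA3 and ANXA1 between the knockouts, and ANXA3 and ANXA7 in TR11B_KO against NC were called in 21 of 21 alternatives. Of 564 annexin values from 21 alternatives, 490 kept direction and call, 34 lost a call, 22 gained one and 18 changed sign. In OGT_KO against NC, the fit to those 2 groups called 5095 genes and 6 annexins, and leaving out each library gave 1072 to 4536 genes and 1 to 6 annexins. In TR11B_KO against NC, 2251 genes were called in the fit to 2 groups, 1979 with the length offset and replicate block, and 1813 to 4463 with each library left out; between the knockouts that range was 2401 to 5307. The low ends came without an OGT_KO or NC library, and the high ends without TR11B_KO replicate 1 or 2. With the replicate block alone, 1609, 2612 and 3403 genes and 3, 4 and 3 annexins were called in OGT_KO against NC, TR11B_KO against NC and OGT_KO against TR11B_KO. The deviations of same-numbered libraries from their group means had correlations of -0.199 to 0.0687. Differently numbered libraries were not compared in this way, so whether the numbers pair the libraries is not settled. Library totals as the only scaling moved the median of all genes to 0.15, -0.15 and 0.31 in these comparisons and the split of higher and lower calls to 1369 and 890, 1180 and 2030, and 3084 and 1268 (with TMM, 1039 and 1264, 1666 and 1803, and 2104 and 2070); annexins then called were 2, 5 and 4. Sign changes were all in uncalled values. In OGT_KO against TR11B_KO, ANXA4 was 0.0421, 0.105 and 0.0421 with limma (pseudocount 1, pseudocount 0.1, and no filter), and with the length offset ANXA7 was -0.049 and ANXA11 -0.21 (-0.20 with the block). In TR11B_KO against NC, the length offset gave ANXA4 0.0755 and ANXA8 0.0479 (0.0044 and 0.0011 with the block). With each library left out, ranges that crossed 0 were -0.0322 to 0.241 for ANXA2 in OGT_KO against NC, -0.552 to 0.0923 for ANXA2, -0.49 to 0.15 for ANXA4 and -0.34 to 0.11 for ANXA8 in TR11B_KO against NC, and -0.61 to 0.0475 for ANXA4 and -0.19 to 0.44 for ANXA7 in OGT_KO against TR11B_KO. The cause of these changes was not tested. At 0 to 22 counts per library, the depth limits what can be said of ANXA8 and ANXA9.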

Other observations

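ANXA2R, which encodes a protein described as a receptor for ANXA2, was read after the annexins and was in none of the lists. It had 2.62, 2.52 and 3.17 CPM in OGT_KO, 4.07, 3.06 and 2.95 CPM in TR11B_KO and 1.7, 2.12 and 1.76 CPM in NC. All knockout libraries were above all NC libraries, and by the edgeR fit it was called in TR11B_KO (log2 0.85 ± 0.251, adjusted p = 0.0221) but not in OGT_KO (0.57 ± 0.251, adjusted p = 0.127). The difference between the knockouts was -0.28 ± 0.246 (OGT_KO minus TR11B_KO, adjusted p = 0.404).

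Mitochondrial genes took 2.63% to 3.28% of the counts in OGT_KO, 1.74% to 2.3% in TR11B_KO and 1.83% to 2.16% in NC. All OGT_KO libraries were above the other 6, beside the ANXA1 and ANXA6 differences of that group, and their part in those was not tested.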
